A study of Mus musculus with 2 samples.

Results

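V(D)J recombination genes were followed in DP thymocytes, which carry both CD4 and CD8 and in which the *Tcra* locus is rearranged. The group holds the 10 genes listed by symbol as the *Rag* genes, terminal transferase and the end-joining factors, namely *Rag1*, *Rag2*, *Dntt*, *Prkdc*, *Xrcc4*, *Xrcc5*, *Xrcc6*, *Lig4*, *Dclre1c* and *Nhej1*. All 10 are among the 21041 genes of the deposited table. The membership rests on gene names and on no measured value, although the list was chosen with earlier results of these data known.

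The study compared polyadenylated RNA of thymic DP cells of WT and of *Cxxc1*-deficient mice, with 1 library for each genotype. Cxxc1 is a CpG-binding subunit of the Setd1 complex, which trimethylates histone H3 at lysine 4. In the study's methods, WT mice carry the floxed *Cxxc1* alleles without Cre, and deficient mice carry the same floxed alleles with the h*CD2*-Cre transgene, which acts in early thymocytes and also in other immune cells. The genotype label of the deficient sample instead reads Cxxc1+/-, and its title marks it as KO. The mice were a few weeks old, and the number of mice behind each library is not given in the sources used here. Each value below is therefore 1 measurement per genotype, no p-value is given, and a lower value cannot distinguish fewer cells of a type from less RNA per cell.

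V(D)J recombination assembles antigen receptor genes from separate gene segments. RAG1 and RAG2 form the recombinase that cuts DNA at recombination signals. The ends are then held by the Ku70-Ku80 heterodimer (*Xrcc6* and *Xrcc5*), which recruits the kinase DNA-PKcs (*Prkdc*), the hairpins on the coding ends are opened by Artemis (*Dclre1c*), untemplated nucleotides are added by terminal transferase (*Dntt*), and the ends are sealed by DNA ligase IV (*Lig4*) with XRCC4 and XLF (*Nhej1*). In the thymus *Rag1* and *Rag2* are active at the DN stage, when *Tcrb* is rearranged, and again at the DP stage, when *Tcra* is rearranged. The end-joining factors, by contrast, also serve the general repair of double-strand breaks.

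Cxxc1 recognizes unmethylated CG dinucleotides, so the stretches before the starts of 5 of these genes are shown first, as examples of CG-poor and CG-rich promoters. In the study, however, only a small part of the Cxxc1-binding sites of DP cells overlapped CpG islands (CG-rich stretches). A Cxxc1 mutant without DNA binding could also still bring deficient DN cells to the DP stage. The number of CG is therefore not a measure of Cxxc1 binding in these cells. Each is the 250 bases before the RefSeq start, 5′ to 3′ along the gene, with every CG in capitals, and each was placed on NCBIM37 (the build of mm9) by an exact match found once.
Rag1, chr2:101489690-101489939, minus strand: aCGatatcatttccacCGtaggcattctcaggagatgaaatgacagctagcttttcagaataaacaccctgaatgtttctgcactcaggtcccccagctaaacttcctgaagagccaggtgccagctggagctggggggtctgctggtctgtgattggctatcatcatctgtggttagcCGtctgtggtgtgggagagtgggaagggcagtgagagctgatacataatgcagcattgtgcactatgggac
Rag2, chr2:101464619-101464868, plus strand: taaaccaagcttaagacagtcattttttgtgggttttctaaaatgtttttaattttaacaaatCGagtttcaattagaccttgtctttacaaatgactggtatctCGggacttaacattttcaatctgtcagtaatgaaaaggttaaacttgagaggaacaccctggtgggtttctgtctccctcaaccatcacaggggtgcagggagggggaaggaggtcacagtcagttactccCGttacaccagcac
Dntt, chr19:41103515-41103764, plus strand: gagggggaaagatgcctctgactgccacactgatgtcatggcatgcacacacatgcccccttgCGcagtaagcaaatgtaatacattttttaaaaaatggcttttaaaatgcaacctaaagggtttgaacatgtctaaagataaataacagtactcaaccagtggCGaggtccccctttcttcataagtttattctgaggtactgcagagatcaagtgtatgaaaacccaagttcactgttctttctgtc
Xrcc6, chr15:81846549-81846798, plus strand: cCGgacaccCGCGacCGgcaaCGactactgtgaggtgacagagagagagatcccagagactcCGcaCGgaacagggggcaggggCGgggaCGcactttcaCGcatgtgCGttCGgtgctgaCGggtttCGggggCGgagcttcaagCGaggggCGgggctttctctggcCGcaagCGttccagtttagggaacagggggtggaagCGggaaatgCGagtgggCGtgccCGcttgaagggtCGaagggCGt
Lig4, chr8:9977681-9977930, minus strand: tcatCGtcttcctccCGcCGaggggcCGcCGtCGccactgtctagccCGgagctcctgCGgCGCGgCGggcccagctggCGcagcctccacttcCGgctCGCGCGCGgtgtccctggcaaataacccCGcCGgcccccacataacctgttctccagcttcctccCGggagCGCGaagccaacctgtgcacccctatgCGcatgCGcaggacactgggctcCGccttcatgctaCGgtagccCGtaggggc

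The *Rag* genes and *Dntt* had few CG in this window. *Rag1* and *Rag2* had 3 each and *Dntt* had 2, with observed to expected CG ratios of 0.19, 0.283 and 0.185. Of the 15686 genes of the table with a RefSeq window, 25.6% had at most 3 CG, and the median gene had 12 (for a gene with several starts, the window with most CG was used). *Xrcc6* had 25 CG, *Xrcc4* had 26 and *Lig4* had 28 and 27 in its 2 annotated windows, in a range of more than 20 that 24.8% of genes reached. The other end-joining genes lay between, with 5 for *Xrcc5*, 8 for *Dclre1c* and 9 for *Nhej1*, and *Prkdc* has no window in the table used. The *Nhej1* window, at 75121801 to 75122050 of chromosome 1, lies outside the annotated span of the gene, which ends at 75093213. Whether it is the start used in these cells is not known. The motif GGGCGG (the GC box, which itself holds a CG) was found on either strand 3 times each at *Xrcc6* and *Xrcc4*, 2 times at *Nhej1* and at 1 of the *Lig4* windows, and 1 time at *Dclre1c*, and not at the *Rag1*, *Rag2*, *Dntt* or *Xrcc5* window. It occurs in 32.7% of all 32851 windows. CCAAT was present 1 time at *Rag1*, 1 time at *Xrcc5* and 3 times at *Dclre1c*, against 33.8% of all windows, and TATAAA in no member's window, against 12.4%. Such matches describe letters and not sites in use.

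The values are normalized per transcript length and rounded to whole numbers by the authors. This was read from the table itself, in which short genes with 1 annotated length step by whole numbers of reads (1 read per kb of transcript corresponds to 4.06 in WT and 4.70 in the deficient library). On this estimate the libraries hold approximately 1373148 and 709557 reads on 19090 genes, and 95% intervals below are counting intervals from these approximate reads. They compare 2 libraries, not 2 genotypes, and PCR copies are not independent molecules. A floor of background was present in both libraries, since 1122 olfactory receptor genes had a median of 22 in WT and 24 in the deficient library, with a 95th percentile of 54.0 and 57. The targeted gene *Cxxc1* had 91 in WT and 50 in the deficient library, a ratio of 0.549 with an interval from 0.338 to 0.877. In the deficient library, 12% of olfactory receptor genes had a value at or above that of *Cxxc1*. The value is 1 number for the whole gene, whereas Cre removes only some of its exons. In deficient DP cells the study found *Cxxc1* mRNA almost undetectable by quantitative PCR, and the protein lost by western blot. Of the DP markers, *Cd4* had 2728 and 1257 and *Cd8a* had 3503 and 507, and the 10 ranged from 79 to 3503 in WT and from 44 to 1490 in the deficient library, with the lowest values at *Ptcra*. Y-chromosome genes, of which the table has 15, were all listed at 0 in WT, and 7 of them were above 0 in the deficient library, so sex and genotype cannot be told apart.

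All 10 recombination genes were lower in the *Cxxc1*-deficient library, and 6 of them, *Rag1*, *Rag2*, *Dntt*, *Xrcc6*, *Lig4* and *Nhej1*, were at least 2-fold lower, whereas *Prkdc*, *Xrcc4*, *Xrcc5* and *Dclre1c* had higher values once the libraries were set to an equal median of the genes of mean 100 or more (below, the strongest scaling). The fold difference ran from 1.33 for *Prkdc* to 10.8 for *Dntt*. At least 2-fold lower values were found for 17.4% of the 20125 genes above 0 in at least 1 library. The median log2 ratio (deficient to WT) was -1.13 for the 10 genes and -0.20 for all genes. Level mattered for this background. Among genes with a mean of the 2 libraries from 20 to 100, 9.62% were at least 2-fold lower, and so was 1 of the 4 members there, *Nhej1*. From 100 to 1000 the share was 56.4%, and 3 of 4 members were. From 1000 upward it was 87.2% of 39 genes, and both members, *Rag1* and *Dntt*, were. A lower value of any size was found for 59.9% of all genes, and for 56.1%, 95.2% and 97.4% in these ranges. A lower value is therefore common to nearly all genes with a mean of at least 100. The number of members past 2-fold is thus near the share of genes of their level, and the members are better told apart by their own values.

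**Figure D1:**
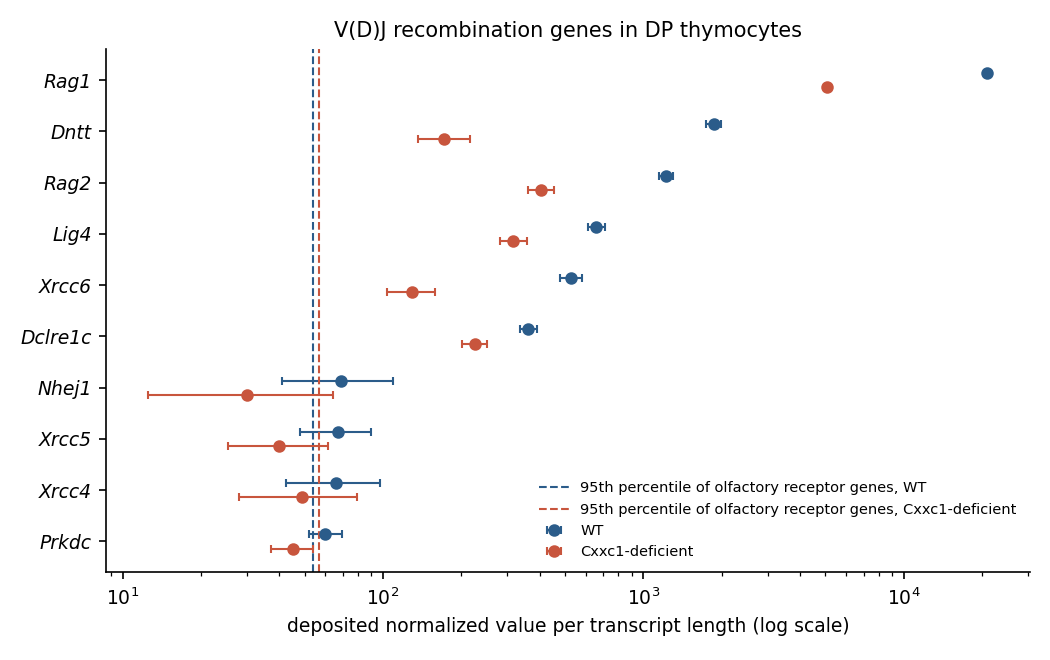
Deposited value per transcript length of each of the 10 genes (log axis) in the WT library (blue) and the Cxxc1-deficient library (red), with 95% counting intervals as bars and the 95th percentile of olfactory receptor genes in each library as dashed lines. From Rag1 down to Dclre1c the intervals of the libraries do not overlap, whereas Nhej1, Xrcc5, Xrcc4 and Prkdc lie close to the dashed lines at 54.0 and 57.

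The recombinase genes were the most abundant of the group. *Rag1* is on chromosome 2 of mm9, minus strand, positions 101478439 to 101489658. It was at 20778 in WT, the second highest of the whole table (rank 2), and 5058 in the deficient library (rank 3). This is a ratio of 0.243, or 4.11-fold lower, with an interval from 4.004 to 4.22. *Rag1* alone made up 81% of the summed value of the 10 genes in WT and 78.2% in the deficient library. Of the 39 genes in the range from 1000 upward, 13 had a ratio at or below that of *Rag1*, itself included, and the median gene of this range was 3.52-fold lower, so the *Rag1* difference was close to that of other genes of the highest level.

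*Rag2* lies on the plus strand of the same chromosome from 101464875 to 101472685, with 5754 bases between the 2 genes. It had 1219 in WT and 405 in the deficient library, 3.01-fold lower with an interval from 2.64 to 3.43. Of the 2433 genes with a mean from 100 to 1000, 17.5% had a ratio at or below it. *Rag1* was 17.1 times *Rag2* per transcript length in WT and 12.5 times in the deficient library. The *Rag1* value was thus lower by a further factor of 1.37 (interval from 1.19 to 1.56), a comparison within each library that no scaling of the libraries changes. The annotated gene *B230118H07Rik*, on the minus strand from 101400938 to 101489689, spans both *Rag* genes, and since the counting is not stated to use strand, its reads cannot be told apart from theirs.

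The neighbour of the *Rag* pair stood apart from it. *Traf6*, which encodes a ubiquitin ligase of innate signalling and begins 28928 bases beyond *Rag1*, had 308 in WT and 277 in the deficient library, a ratio with an interval from 0.781 to 1.03. The median gene with a mean from 100 to 1000 was 2.11-fold lower. On the other side the nearest coding gene of the table, *Lrrc4c*, is 3993052 bases away and had 43 and 67.

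Terminal transferase had the largest difference of the 10 genes. *Dntt* lies on the plus strand of chromosome 19 from 41103765 to 41134013, and its values were 1859 in WT and 172 in the deficient library, resting on approximately 976 and 78 reads. It was 10.8-fold lower, with an interval from 8.56 to 13.8. Of the 39 genes in the range from 1000 upward, 2 had a ratio at or below that of *Dntt*, itself included. Its rank among all genes went from 24 in WT to 495 in the deficient library.

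Set against the recombinase, *Dntt* was 1.53 times *Rag2* in WT and 0.425 times *Rag2* in the deficient library. The difference at *Dntt* was 2.63 times that at *Rag1* (interval from 2.08 to 3.36) and 3.59 times that at *Rag2* (from 2.74 to 4.74). In each of its 9 pairs with another member, the counting interval of this factor lay above 1, as it did in 28 of the 45 pairs of the 10 genes (the intervals are not adjusted for the number of pairs). The neighbours of *Dntt* were at the background of the libraries. *Blnk*, a B-cell adaptor gene, had 21 and 29, and *Opalin*, a gene of myelinating glia, had 23 and 26. Both intervals of the ratio held 1.

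**Figure D2:**
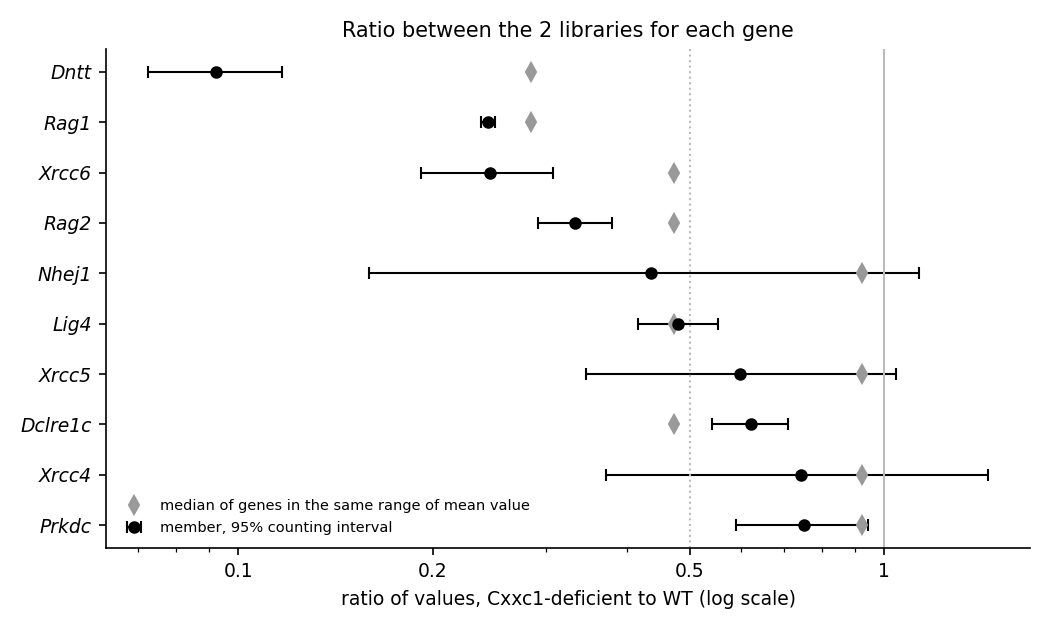
Ratio of the deposited values, Cxxc1-deficient to WT (log axis), for each of the 10 genes with its 95% counting interval, beside the median ratio of genes in the same range of mean value (grey diamonds, ranges 20 to 100, 100 to 1000 and at least 1000), with lines at ratios of 1 and 0.5. Dntt lies at 0.0925 with its whole interval below the diamond, the intervals of Rag1, Rag2 and Xrcc6 also lie wholly below theirs, Lig4 lies on it and Dclre1c lies above it. The strongest scaling tried moves all points and diamonds right by a factor of 1.99, which puts Prkdc, Xrcc4, Xrcc5 and Dclre1c past 1.

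Genes of the DNA-PK step differed within the complex. *Xrcc6*, which encodes Ku70, is on chromosome 15, plus strand, positions 81818265 to 81870515 (the RefSeq start used above lies within this span). It was at 526 in WT and 129 in the deficient library, 4.08-fold lower with an interval from 3.26 to 5.20. Only 5.47% of the 2433 genes with a mean from 100 to 1000 had a ratio at or below it. *Xrcc5*, which encodes the Ku80 partner, lies on chromosome 1 from 72353995 to 72441526 and had 67 and 40, with a ratio of 0.597 and an interval from 0.345 to 1.04.

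The Ku subunits act as a heterodimer, and their mRNA levels were unequal. Per transcript length *Xrcc6* was 7.85 times *Xrcc5* in WT and 3.23 times in the deficient library. The difference was larger at *Xrcc6* by a factor of 2.43 (interval from 1.34 to 4.50). At *Xrcc5*, 24.2% of the olfactory receptor genes had a value at or above its value in the deficient library, against 0.535% in WT. The part of the background in its ratio was not tested beyond the subtraction of the olfactory receptor median, which gave a ratio of 0.356. The same subtraction gave 0.208 at *Xrcc6*. The ratios of the Ku genes were then closer together, so the factor of 2.43 holds only for the values as deposited. The annotated gene *Pppde2* lies within the *Xrcc6* locus on the opposite strand, from 81822953 to 81864292, and its reads cannot be told apart from those of *Xrcc6*.

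The remaining genes of this step differed less. *Prkdc*, the DNA-PKcs gene on chromosome 16 from 15637959 to 15842332, had 60 in WT and 45 in the deficient library, a ratio of 0.75 with an interval from 0.589 to 0.943. Its transcript of 12674 bases gives approximately 188 and 121 reads, which narrows this interval although the value is low. In the deficient library, 16.9% of olfactory receptor genes had a value at or above that of *Prkdc*. Subtraction of the olfactory receptor median gave a ratio of 0.553, which lies outside the counting interval. As deposited, the difference at *Xrcc6* was 3.06 times that at *Prkdc* (from 2.19 to 4.28). *Mcm4*, a replicative helicase gene that begins 466 bases away in the opposite direction, had 110 and 69, a ratio with an interval from 0.445 to 0.895, which overlaps that of *Prkdc*. *Dclre1c*, the Artemis gene, lies on chromosome 2 from 3341403 to 3381402 and had 362 and 225, 1.61-fold lower with an interval from 1.41 to 1.85. In its range of mean value, 76.6% of genes had a ratio at or below that of *Dclre1c*, so it was among the less reduced genes of its level.

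In the ligation complex *Lig4* was the abundant member. It is on chromosome 8, minus strand, positions 9970020 to 9977686. It was at 660 in WT and 317 in the deficient library, 2.08-fold lower with an interval from 1.81 to 2.41. This is the middle of its range, where 51.8% of genes had a ratio at or below it. *Abhd13*, whose annotated start is 21 bases from that of *Lig4* on the other strand, had 156 and 78, a ratio with an interval from 0.383 to 0.645, so the pair of genes differed to a similar extent.

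The partners of ligase IV were near the background. *Xrcc4*, on chromosome 13 from 89913632 to 90229213, had 66 in WT and 49 in the deficient library, with an interval of the ratio from 0.370 to 1.45. *Nhej1*, on chromosome 1 from 75013713 to 75093213, had 69 and 30, with an interval from 0.159 to 1.13. They rest on approximately 25 and 16 reads for *Xrcc4* and 18 and 7 for *Nhej1*, so a difference was not detectable at this depth for either, although the *Nhej1* values are more than 2-fold apart. In *Cxxc1*-deficient cells 12.8% and 41.3% of olfactory receptor genes had values at or above those of *Xrcc4* and *Nhej1*. *Tmem167* overlaps the *Xrcc4* locus and *Suv39h2* the *Dclre1c* locus, both on the opposite strand, and had 105 and 81, and 64 and 47.

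Within each library the genes fell into an order of levels. In WT *Rag1* was followed by *Dntt*, *Rag2*, *Lig4*, *Xrcc6* and *Dclre1c*, with counting intervals of the levels that did not overlap between neighbours. *Nhej1*, *Xrcc5*, *Xrcc4* and *Prkdc* came last, between 69 and 60, with overlapping intervals. In *Cxxc1*-deficient cells the order was *Rag1*, *Rag2*, *Lig4*, *Dclre1c*, *Dntt* and *Xrcc6*. *Dntt* thus went from position 2 to position 5, and *Dclre1c* from position 6 to position 4. The level of *Dclre1c* there, 225, had an interval from 201 to 250, which overlaps that of *Dntt* from 136 to 215, and the interval of *Dntt* overlaps that of *Xrcc6* from 103 to 158. The levels of *Rag2* and *Lig4* were separate from each other by their intervals, from 360 to 454 and from 281 to 357.

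**Figure D3:**
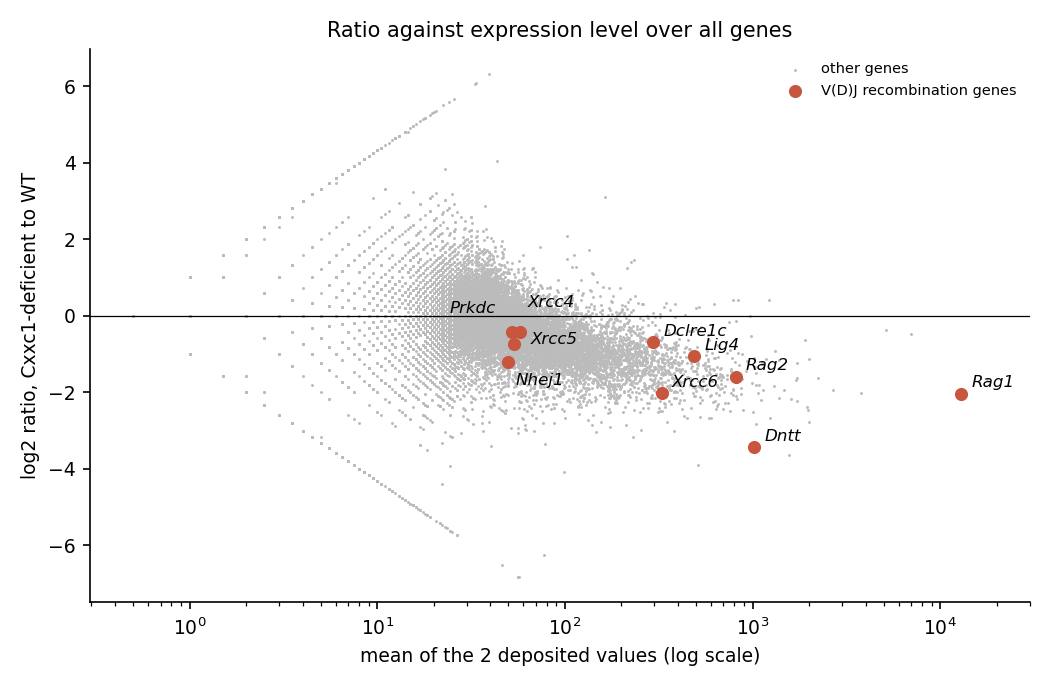
Log2 ratio of the deposited values, Cxxc1-deficient to WT, against the mean of both values (log axis) for the 20125 genes above 0 in at least 1 library (grey) and the 10 recombination genes (red). The grey cloud bends downward with level, Rag1 lies at the far right at -2.04, Dntt lies near the lower edge of genes of its level at -3.43, and Dclre1c lies in its upper part at -0.69.

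The genes most like each member in both libraries were found by the larger of the differences in log2 value over the 2 libraries. For *Rag1* the closest was the nuclear RNA *Malat1*, at a distance of 0.75, with 27017 and 8517, followed by *Rn45s* and by *Satb1*, the thymocyte chromatin organizer. *Rag1* thus had no close companion at its level. *Rag2* was within 0.09 of *Pfn1*, which encodes the actin-binding profilin, of the T-lineage factor *Bcl11b* (1162 and 395) and of *Ywhaz*. The nearest to *Dntt* was *Sla*, a Src-like adaptor gene, with 1292 and 231 at a distance of 0.53, followed by *Srsf1* and *Rsrp1*. *Xrcc6* was closest to *Rtn4* (531 and 132), then *Ugcg* and *Ccnd3*. *Lig4* was closest to *Erbb2ip* (661 and 308), *Arpc2* and *Aqp11*, and *Dclre1c* to *Rsrc2* (363 and 227), *Lims1* and *Hspa5*.

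Among the lists of cell type markers, those of the DP and DN stages differed most between the libraries. The 6 markers of the DN stage, in which the *Rag* genes and *Dntt* are also active, were all higher in the deficient library, with a summed value of 254 in WT and 561. *Il2ra* had 63 and 207 and *Notch3* had 56 and 167, which made up most of the higher sum. By contrast, *Kit* (35 and 36), *Hes1* (28 and 52), *Dtx1* (37 and 41) and *Cd44* (35 and 58) stayed near the background. The interval of the ratio held 1 at *Kit*, *Hes1* and *Dtx1*, and not at *Cd44*. The 10 DP markers were all lower, with a sum of 17303 and 5600 and a median log2 ratio of -1.98, which the strongest scaling moved to -0.99. With a mean of at least 100, 9 of them belong to the levels in which 95.2% or 97.4% of genes were lower. The part of the DP markers in the ratios of the recombination genes was not tested. The 8 B-cell markers, a lineage that also uses *Rag1*, *Rag2* and *Dntt*, summed to 229 and 189 and ranged from 5 to 74 in WT and from 0 to 47 in the deficient library, with *Vpreb1* at 5 and 0. Markers of mature SP cells summed to 388 and 318 (4 of 6 higher), those of macrophages and dendritic cells to 257 and 252 (4 of 7 higher), those of erythroid cells to 134 and 151 (2 of 5 higher, *Hba-a1* listed at 0 in both) and those of epithelium and stroma to 197 and 188 (2 of 8 higher, *Krt8* at 4 and 0), and single values of the latter 2 lists did not exceed 64 in either library.

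Promoter CG content was set beside the ratios, with no test. *Rag1*, *Rag2* and *Dntt*, with 2 or 3 CG, were 3.01- to 10.8-fold lower. With 5 to 9 CG, *Xrcc5* was 1.68-fold, *Dclre1c* 1.61-fold and *Nhej1* 2.30-fold lower. Of the members with more than 20 CG, *Xrcc6* was 4.08-fold, *Lig4* 2.08-fold and *Xrcc4* 1.35-fold lower. *Xrcc6* was thus the only member outside the group of 2 or 3 CG with a difference above 3-fold, and the *Xrcc4*, *Xrcc5* and *Nhej1* ratios have intervals that hold 1. *Rag1*, *Rag2* and *Dntt* were also the most abundant members in WT, and over all genes the difference was larger at higher levels. Among the members, CG number and level therefore cannot be told apart. Over the 64 genes of mean 100 or more with at most 3 CG, the median difference was 2.19-fold. It was 2.04-fold for the 240 genes with 4 to 10 CG, 2.08-fold for the 679 genes with 11 to 20, and 2.15-fold for the 934 genes with more than 20. The share at least 2-fold lower was 56.2% in the first class and 59.3% in the last.

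**Figure D4:**
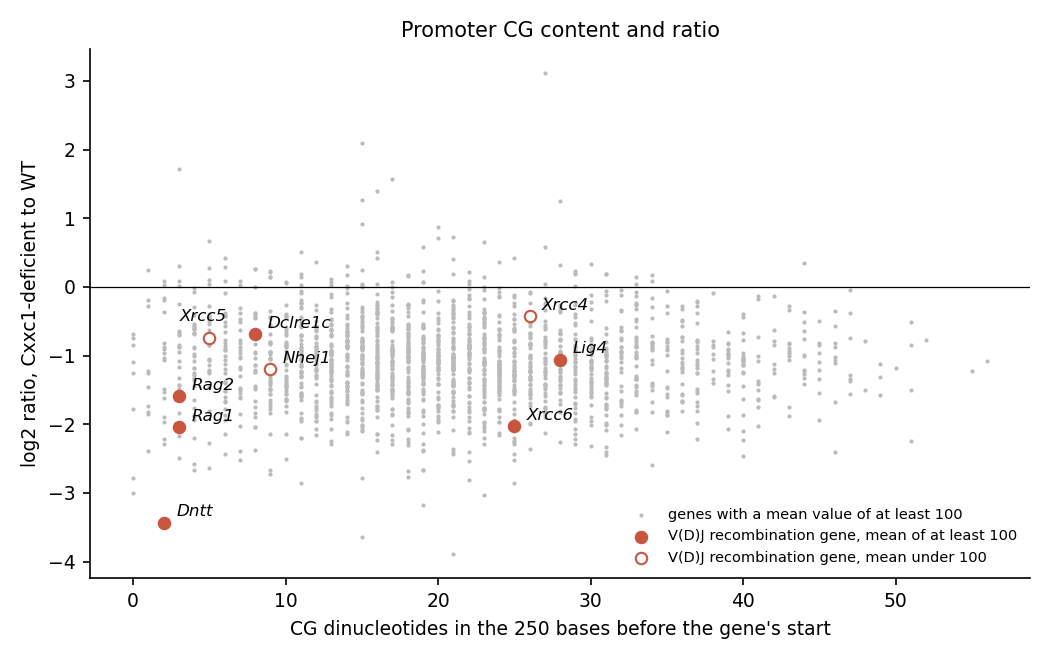
Number of CG dinucleotides in the 250 bases before the RefSeq start against the log2 ratio, Cxxc1-deficient to WT, for genes with a mean value of at least 100 (grey) and for the 9 members with a window (red, open where the mean is under 100). Rag1, Rag2 and Dntt stand at 2 or 3 CG and Xrcc6 and Lig4 at 25 and 28, and the median of the grey points lies between 2.04- and 2.19-fold lower in each of 4 classes of CG number.

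Other genes of the same pathway were lower to a smaller extent. Of the 7 end-joining accessory genes in the table, 6 were lower, 1 (*Poll*, a gap-filling polymerase, with 33 and 38) was higher and 1 was at least 2-fold lower, with a median log2 ratio of -0.31. That gene was *Tdp2*, which removes topoisomerase from DNA ends, with 105 and 48, and *Tdp1* had 36 and 21. *Polm*, the polymerase closest in family to terminal transferase, had 57 and 55. All 7 had a mean under 100, so they compare with the 9.62% of genes of that level and not with *Dntt*. Small medians such as this depend on the scaling. At an equal 75th percentile of the libraries, the median was 0.08 for this list, 0.02 for the break response, 0.07 for alternative end joining, 0.01 for homologous recombination and 0.29 for base excision repair, all above 0, and under the strongest scaling mismatch repair (0.30) and nucleotide excision repair (0.24) were above 0 as well.

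Of the 10 genes of the break response, 8 were lower (2 of them 2-fold or more) and 2 higher, with a median log2 ratio of -0.37. The ubiquitin ligase genes *Rnf8* (80 and 19) and *Rnf168* (91 and 38) were the lowest, while the histone gene *H2afx* had 51 and 80 and *Nbn*, of the complex that senses breaks, had 39 and 42. Alternative end joining, which works without Ku, had 5 of 6 genes lower and 0 past 2-fold. There *Parp1* had 120 and 68, *Rbbp8* 78 and 55, and *Polq* 38 and 41. Taking these lists together, 3 of 23 genes were at least 2-fold lower, against 17.4% of all genes and 9.62% of those with a mean from 20 to 100, and the highest WT value was 156, for *Rad50*.

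Genes that act on RAG itself were more abundant. Of the RAG cofactors and turnover factors, *Hmgb2*, a DNA-bending cofactor of the recombinase, had 152 and 56, and *Ddb1*, a subunit of the ubiquitin ligase that degrades RAG1, had 255 and 97. *Vprbp*, the substrate receptor of that ligase, had 171 and 140, and *Hmgb1* was listed at 0 in both libraries. This is below the olfactory receptor medians of 22 and 24, and only unique reads were kept. Whether a listed 0 means that no transcript was present was not tested. All 10 regulators of *Rag* transcription were lower and 6 were at least 2-fold lower, with a median log2 ratio of -1.16. With a mean of at least 100, 9 of the 10 belong to the levels in which 56.4% or 87.2% of genes were at least 2-fold lower. In those levels 95.2% or 97.4% of genes were lower to any extent. Under the strongest scaling the median of the regulators was -0.16 and that of the cofactors -0.40. *Satb1* was 4.08-fold lower, with 6080 and 1492, beside the 4.11-fold of *Rag1*, and *Myb* had 2621 and 848.

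The genes of 4 other repair pathways had lower levels than the abundant recombination genes. Over 46 such genes, 35 were lower (11 of them 2-fold or more) and 11 higher, against 17.4% of all genes and 9.62% of those with a mean from 20 to 100, with a median log2 ratio of -0.44 and a highest WT value of 289, for *Msh6*. By pathway the median was -0.38 for homologous recombination (0 of 14 at least 2-fold lower), -0.70 for mismatch repair (3 of 7), -0.76 for nucleotide excision repair (5 of 12) and -0.10 for base excision repair (3 of 13). Among the extremes were *Blm* (62 and 34) and *Brca2* (50 and 56) in the first, *Msh6* (289 and 103) and *Pms1* (59 and 25) in the second, *Xpa* (229 and 74), *Rad23b* (193 and 77) and *Ercc1* (35 and 45) in the third and *Mpg* (57 and 26), *Neil1* (49 and 24), *Ung* (29 and 37) and *Nthl1* (19 and 22) in the last. The base excision genes *Apex1* and *Tdg* were listed at 0 in WT and at 16 and 4 in the deficient library. As at *Hmgb1*, whether a listed 0 means that no transcript was present was not tested. Of the 46 genes, 3 had a mean of at least 100, and their median difference was 2.81-fold, against 6 of the 10 recombination genes.

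**Figure D5:**
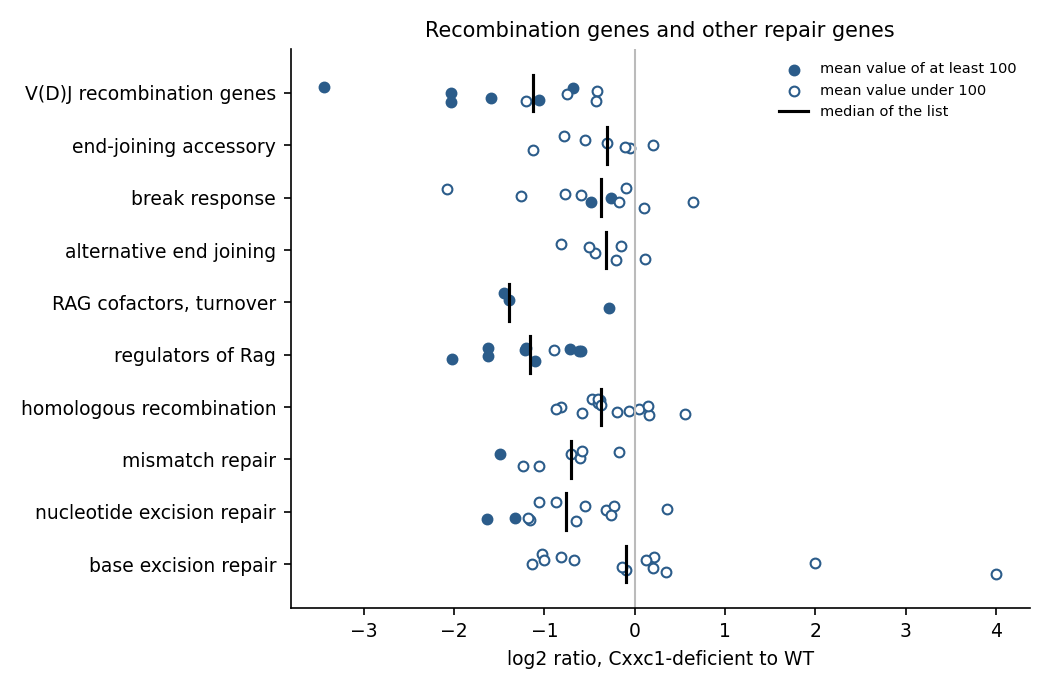
Log2 ratio, Cxxc1-deficient to WT, of each gene of the recombination list and of 9 lists of related genes and repair pathways, filled where the mean value is at least 100 and open where it is lower, with the median of each list as a black bar. As deposited, the recombination genes reach from -0.42 to -3.43 with a median of -1.13, most repair genes are open circles between -1.5 and 0.5, and the points of base excision repair at 2 and 4 are genes listed at 0 in WT (set to the floor of 1).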

How the data were processed

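RNA-seq of DP thymocytes was analysed for 2 samples, 1 WT and 1 Cxxc1-deficient library, grouped by their titles. Per the labels and the study's methods, the authors used CASAVA 1.8.2 and Bowtie 1.0.1, mapped to mm9, kept unique reads and used Partek. What the authors deposited is a score, that is, 1 normalized value for each gene, rounded to whole numbers. The normalization and annotation are not given in the sources used here.

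Reads were estimated as the product of value, transcript length and a constant, divided by a fixed factor for units. The constant (246600 in WT, 212600 in Cxxc1-deficient cells) was scanned from 100000 to 500000 over genes with 1 GENCODE vM1 transcript length of at most 1000 bases. At these constants 78.3% of 1477 genes in WT and 77.5% of 1467 in Cxxc1-deficient cells lay within 0.5 of a whole number of reads, against 19.9% and 17.1% from spacing alone. At constants further away, the excess over spacing still reached 38.4 percentage points in WT and 46.3 in Cxxc1-deficient cells. Reads of a gene used its longest coding transcript and are approximate, since the lengths used by the authors are not named. Ratios used a floor of 1 and a threshold of 2-fold. Intervals are 95% Clopper-Pearson (ratios), exact Poisson (levels) and exact conditional (pairs of genes), for counting error only. The code was tested on simulated data. Software was scipy 1.17.1, pandas 2.3.3 and numpy 2.4.6, with matplotlib 3.10.9, in Python 3.11.15.

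The members and lists were chosen with earlier results of these data known. Named genes were all members, their nearest coding neighbours in the table, the 3 genes nearest in pattern to members with a mean of at least 100, and per list the 2 largest differences in each direction among genes with a mean of at least 20. Other listed genes were named after their values were seen. Some genes that this rule names are not reported here. Promoter windows came from RefSeq, and 9 of 10 members matched. Alternatives were 4 scalings, subtraction of the olfactory receptor median, pseudocounts of 1 and 10, filters on the mean and other thresholds.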

Additional observations from a re-analysis of the deposited data

How the results depend on the processing

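The order of the 10 ratios is not changed by a scaling, but their distance from 1 is. The median log2 ratio of -1.13 became -0.74 at an equal 75th percentile, -0.57 at an equal sum without the 100 highest genes, -0.13 at an equal median of the genes of mean 100 or more, -1.57 after subtraction of the olfactory receptor median, -1.01 with a pseudocount of 10 and -1.81 over the 6 members of that mean. These 3 scalings moved the median over all genes by 0.39, 0.56 and 1.00, and the subtraction by -0.24. Of 10 members, 6 were at least 2-fold lower as deposited and 3 (Rag1, Dntt and Xrcc6) at an equal median of the genes of mean 100 or more, where 3.51% of all genes were. Other settings gave 4 to 8 members, but the share of all genes changed with them. A threshold of 1.5-fold gave 8 members beside 31.9% of all genes, and 3-fold gave 4 beside 6.3%. Subtraction of the olfactory receptor median gave 7 beside 37.4%. The ratio crossed 1 at Prkdc (1.11) and Xrcc4 (1.10) at an equal sum without the 100 highest genes, and at Prkdc (1.496), Xrcc4 (1.48), Xrcc5 (1.19) and Dclre1c (1.24) at an equal median of the genes of mean 100 or more. These shifts follow from the factors of 1.31, 1.48 and 1.99 applied to the Cxxc1-deficient library. Rag1, Rag2, Dntt, Xrcc6, Lig4 and Nhej1 stayed below a ratio of 1 in every setting run. At an equal median of the genes of mean 100 or more, however, Lig4 was close to 1 (0.958) and Nhej1 was at 0.868. No intervals were computed after scaling, so a difference at Lig4 or Nhej1 is not established there. Of 173 recomputed medians of the other lists, 84 moved by at least 0.1. No paired analysis was possible because there is only 1 library of each genotype. The few reads limit Xrcc4, Xrcc5 and Nhej1, whose intervals held 1.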
